A study of Mus musculus with 6 samples.

Results

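The 37 genes described here are targets and partners of ATF4 that were listed by name, among them stress transcription factors, feedback regulators, enzymes of serine, asparagine and proline synthesis, and tRNA synthetases. All 37 were found among the 49671 genes of the count tables, 36 by their listed symbol and Mars1 by its older symbol Mars, and all 37 passed the filter on low counts that left 13996 genes for testing. They were measured in bulk RNA from cultures of OT-I CD8 T cells, which carry a transgenic T cell receptor for the ovalbumin peptide SIINFEKL. Which cells of a culture a level comes from is not known. All 6 cultures came from splenocytes and were stimulated for 48 h with SIINFEKL on antigen-presenting cells. BiTS is a bispecific T cell silencer that joins the checkpoint receptor LAG-3 with the T cell receptor, and how BiTS(mut) differs from it is not described in the labels. There were 2 libraries each of BiTS, BiTS(mut) and the isotype control. The labels call the cells naive, which is their state before the stimulation shared by all 3 groups. Nothing in the labels says whether libraries of a group came from separate mice, so p-values measure the spread between these libraries only. The title numbers run from 1 to 6 and put 1 library of each treatment in a first set (numbers 1 to 3) and 1 in a second set (numbers 4 to 6). The labels do not say that a set is a batch.

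ATF4 is the transcription factor of the integrated stress response. Kinases that sense missing amino acids, unfolded protein in the endoplasmic reticulum, double-stranded RNA or lack of haem phosphorylate the initiation factor eIF2, which lowers translation overall and favours translation of the Atf4 mRNA. ATF4 then pairs with C/EBP proteins on composite DNA elements and drives genes that import and make amino acids and charge tRNAs, while CHOP (Ddit3), TRIB3 and GADD34 (Ppp1r15a) limit or redirect the response. Activated T cells are known to depend on ATF4 for amino acid uptake and one-carbon metabolism. Since ATF4 is controlled largely at translation, its mRNA level need not follow its activity.

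The libraries held between 10813123 and 15239077 gene counts. Levels between libraries are given as counts per 1000000 (CPM) scaled by TMM, and 3 counts, the most that a count of 0 allows, came to 0.197 to 0.277 CPM. The T cell markers were present in every library, with Cd8a at 260 and 371 CPM in BiTS, 193 and 336 CPM in BiTS(mut), and 193 and 314 CPM in isotype libraries. The 10 T cell markers together held 2467 and 2762 CPM in BiTS, 2211 and 2578 CPM in BiTS(mut), and 2042 and 2548 CPM in isotype libraries. Markers of other cells were present too. The 18 dendritic cell markers summed to 2656 and 1604 CPM in BiTS, 3226 and 1797 CPM in BiTS(mut), and 3218 and 1702 CPM in isotype libraries. The 11 markers of macrophages and monocytes, of which 4 were tested, summed to 15.7 to 46.8 CPM. The 6 B cell markers, of which 1 was tested, summed to 2.8 to 5.4 CPM. No marker of the 4 lists had 0 counts in every library. In these bulk libraries fewer cells of a type and less RNA per cell cannot be told apart.

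Promoter sequence was available for 32 of the 37 genes, as RefSeq windows on GRCm38.p6 that run from 250 bases before to 50 bases after the annotated start. The core of the C/EBP-ATF response element, TGATGNAA with any base at N, was searched on both strands. It was found in windows of 12 of the 32 genes (37.5%), against 1219 of all 27025 genes with a window (4.51%). The exact form TGATGCAA was in 9 of the 32 (28.1%) and in 1.03% of all genes. By role, the core was in 2 of 7 stress transcription factors (Atf3 and Nupr1), 3 of 7 stress effectors (Chac1, Trib3 and Vldlr), 2 of 9 synthesis enzymes (Asns and Pycr1) and 5 of 9 tRNA genes (Aars, Gars, Iars, Tars and Yars). The 4 windows printed next belong to genes whose levels are tested here, and they show the element in different places. Each reads 5′ to 3′ on the strand of the gene, with the match in capitals. Chac1 lies on the plus strand (chr2:119350992-119351291), Trib3 on the minus strand (chr2:152344011-152344310), Asns on the minus strand (chr6:7693160-7693459) and Vldlr on the plus strand (chr19:27216770-27217069, the window with the match where RefSeq lists more than 1).
Chac1: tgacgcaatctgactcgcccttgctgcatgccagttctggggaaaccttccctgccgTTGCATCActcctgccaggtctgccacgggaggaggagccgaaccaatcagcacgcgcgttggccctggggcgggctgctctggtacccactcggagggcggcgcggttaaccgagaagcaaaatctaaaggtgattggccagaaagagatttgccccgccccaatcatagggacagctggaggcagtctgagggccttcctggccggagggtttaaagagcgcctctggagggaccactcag
Trib3: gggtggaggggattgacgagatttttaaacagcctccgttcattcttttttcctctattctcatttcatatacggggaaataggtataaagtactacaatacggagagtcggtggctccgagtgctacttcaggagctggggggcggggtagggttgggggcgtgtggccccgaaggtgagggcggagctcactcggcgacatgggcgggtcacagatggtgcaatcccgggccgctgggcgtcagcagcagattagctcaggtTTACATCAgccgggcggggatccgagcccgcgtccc
Asns: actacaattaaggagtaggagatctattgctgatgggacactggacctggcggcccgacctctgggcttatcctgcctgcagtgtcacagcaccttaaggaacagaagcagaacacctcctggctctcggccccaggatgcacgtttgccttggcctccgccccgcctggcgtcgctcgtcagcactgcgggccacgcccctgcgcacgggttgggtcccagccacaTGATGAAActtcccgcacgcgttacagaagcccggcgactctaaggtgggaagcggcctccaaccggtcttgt
Vldlr: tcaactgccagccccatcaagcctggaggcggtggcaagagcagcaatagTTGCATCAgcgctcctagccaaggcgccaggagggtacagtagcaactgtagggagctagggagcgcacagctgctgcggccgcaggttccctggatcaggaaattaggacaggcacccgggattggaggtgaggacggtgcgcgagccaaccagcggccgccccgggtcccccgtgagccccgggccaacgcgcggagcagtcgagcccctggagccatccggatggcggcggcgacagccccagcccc
In Chac1 and Vldlr the exact element lay on the opposite strand, its first base at positions -193 and -200 from the start. In Asns the match TGATGAAA lay on the strand of the gene at -23, and in Trib3 the match TTACATCA, read on the gene's strand, lay 14 bases after the start. A match is a run of letters and not a measured binding site.

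Per length of transcript, the 37 genes spanned a wide range of abundance. As transcripts per 1000000 (TPM) averaged over the 6 libraries, Ddit4 was highest at 642, followed by Atf4 at 483 and Shmt2 at 457, and the tRNA synthetase Nars had 336. At the other end stood Pycr1 at 12.2, Vldlr at 6.51 and Stc2 at 5.23. Ddit4 (506 to 788 TPM) was above Atf4 (399 to 593 TPM) in each of the 6 libraries. Atf4 and Shmt2 changed places, with Atf4 at 593 and Shmt2 at 513 TPM in BiTS replicate 1 and Atf4 at 399 and Shmt2 at 429 TPM in isotype replicate 4. Stc2 ran from 3.61 to 8.18 TPM.

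**Figure D1:**
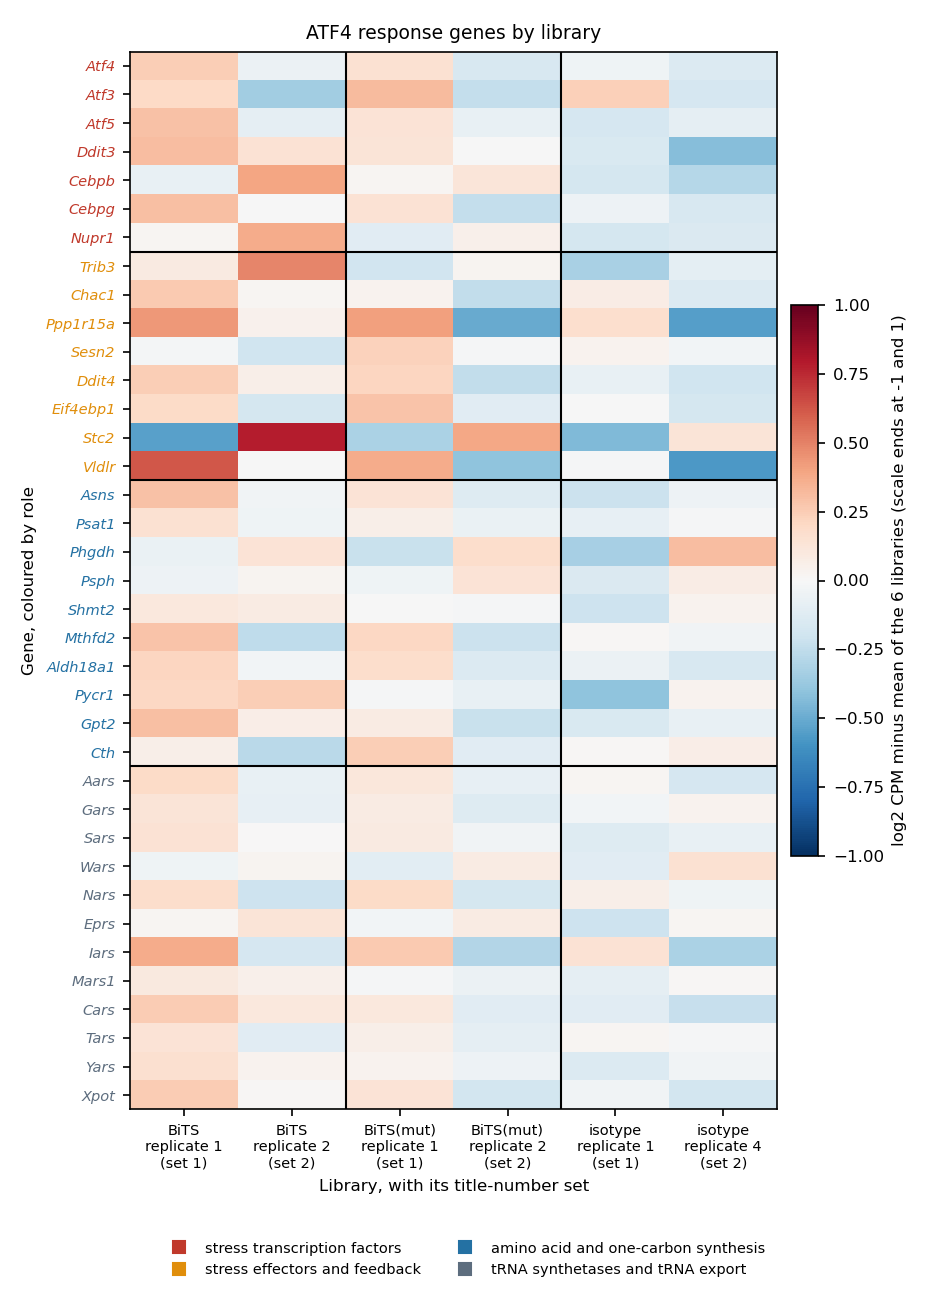
Heat map of the 37 genes (rows, names coloured by role) in the 6 libraries (columns), as log2 CPM minus the gene's mean over the 6 libraries. BiTS replicate 1 is above the mean for most rows, and Stc2, Ppp1r15a and Vldlr vary most between the first and the second set.

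BiTS was first set against isotype, the comparison that asks what the bispecific does to cells stimulated alike. Ddit3, Trib3, Ppp1r15a, Ddit4, Vldlr and Cars, the last coding for the cysteinyl-tRNA synthetase, rose in BiTS libraries by 0.29 to 0.60 on the log2 scale when the set was fitted as a block. None of the 37 fell. These calls need the block: without it 0 of 37 genes were called in edgeR, with Ddit3 and Trib3 at an unadjusted p under 0.05. Of all 13996 genes 0 were called without it (0%), with 176 at an unadjusted p under 0.05 in edgeR and 0 called and 106 at that p in DESeq2. With the block, 1.81% of all genes rose (253) and 1.59% fell (223), against 6 and 0 of the 37. The median log2 fold change of the 37 was 0.18 and 32 of them were positive, while the median of all genes was -0.005 and 49.0% were positive. In 24 of the 37 BiTS exceeded isotype in both sets, against 28.1% of all genes.

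CHOP, the factor encoded by Ddit3 (ENSMUSG00000025408, chr10:127290774-127296288, mm10, plus strand), promotes cell death when stress persists. Ddit3 stood at 108 and 96.4 CPM in BiTS libraries, 95.3 and 86.8 CPM in BiTS(mut) libraries, and 78.4 and 65.1 CPM in isotype libraries. The 3 groups did not overlap, and the order BiTS, BiTS(mut), isotype was the same in both sets. BiTS exceeded isotype by 0.51 ± 0.09 (log2 fold change ± SE, edgeR with the block, adjusted p = 0.00016). Without the block the difference was 0.51 with an unadjusted p of 0.022. The opposite-strand neighbours Mars and Gm4189 share 4.7% of its exon bases, and whether counting used the strand is not given in the sources used here.

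Atf4 itself (ENSMUSG00000042406, chr15:80255184-80257540) had 385 and 312 CPM in BiTS, 362 and 290 CPM in BiTS(mut), and 315 and 295 CPM in isotype libraries. The groups overlapped, and the difference of BiTS from isotype, 0.18 ± 0.08, did not pass (adjusted p = 0.27 with the block). Of the other stress factors, Cebpg, the C/EBP partner of ATF4, had 87.5 and 70.7 CPM in BiTS against 68.8 and 63.5 CPM in isotype libraries. Nupr1, a stress-induced chromatin protein, had 30.2 and 38.5 CPM against 26.3 and 26.9 CPM, and Cebpb had 17.5 and 24.1 CPM against 16.3 and 15.1 CPM. These 3 were higher in BiTS in both sets, and none passed. Cebpb shares 20.7% of its exon bases with Tmem189 on the other strand. Atf5 had 38.1 and 29.2 CPM in BiTS and 27.8 and 29.2 CPM in isotype libraries, a difference seen in the first set alone. Atf3, a repressor induced by many stresses, was lower in BiTS in both sets, with 101 and 69.1 CPM against 104 and 78.2 CPM, and did not pass. Over the 7 stress factors 1 rose, 0 fell, and the median log2 fold change was 0.25.

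The effectors and feedback genes held 4 of the 6 calls. Trib3 (ENSMUSG00000032715, chr2:152337422-152344032, minus strand) encodes a pseudokinase that binds ATF4 and CHOP and restrains them. Its level was 77.4 and 102 CPM in BiTS, 63.7 and 74.3 CPM in BiTS(mut), and 58.2 and 68.0 CPM in isotype libraries. Both BiTS libraries lay above all others, and the fold change over isotype was 0.50 ± 0.09 (adjusted p = 0.00037, edgeR with the block).

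Vldlr, the receptor for very low density lipoprotein (ENSMUSG00000024924, chr19:27216484-27254231, plus strand), had the largest fold change of the 37, 0.60 ± 0.13 (adjusted p = 0.0023, edgeR with the block). It had 37.6 and 24.5 CPM in BiTS, 31.7 and 18.5 CPM in BiTS(mut), and 24.3 and 16.4 CPM in isotype libraries. The lower BiTS library was only just above the higher isotype library, so the separation is seen within sets. Ppp1r15a encodes GADD34, the phosphatase subunit that reverses eIF2 phosphorylation (chr7:45522916-45526268, minus strand). It had 129 and 97.8 CPM in BiTS, 127 and 67.3 CPM in BiTS(mut), and 107 and 64.9 CPM in isotype libraries, and rose by 0.42 ± 0.10 over isotype (adjusted p = 0.0048, edgeR with the block). BiTS and isotype overlapped for this gene across sets, and its log2 difference was 0.27 in the first set and 0.59 in the second. With the block its fold change was 0.22 without BiTS replicate 2, where it was not called, and 0.64 without BiTS replicate 1. It was called in 9 of 12 other settings with the block, and those without the call were DESeq2, spike-in scaling and that without BiTS replicate 2. Ddit4, which encodes the mTORC1 inhibitor REDD1, had 500 and 437 CPM in BiTS, 487 and 355 CPM in BiTS(mut), and 400 and 366 CPM in isotype libraries. Its rise of 0.29 ± 0.08 was the closest to the threshold (adjusted p = 0.042, edgeR with the block), and it was called in 2 of 12 other settings with the block.

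The remaining effectors did not pass. Chac1, a glutathione-degrading enzyme, had 18.1 and 15.4 CPM in BiTS, 15.5 and 12.8 CPM in BiTS(mut), and 16.0 and 13.8 CPM in isotype libraries. BiTS was higher than isotype in both sets by 0.17 ± 0.15 (adjusted p = 0.65 with the block), a difference near the size of its error. Stc2, a secreted glycoprotein, had 7.04 and 17.7 CPM in BiTS against 7.55 and 11.2 CPM in isotype libraries. Sesn2, an inhibitor of mTORC1 that senses leucine, was the one effector lower in BiTS in both sets, with 90.3 and 79.7 CPM against 93.7 and 89.6 CPM. Eif4ebp1, a brake on cap-dependent translation, had 153 and 119 CPM in BiTS and 134 and 119 CPM in isotype libraries. The median log2 fold change of the 8 effectors was 0.31.

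**Figure D2:**
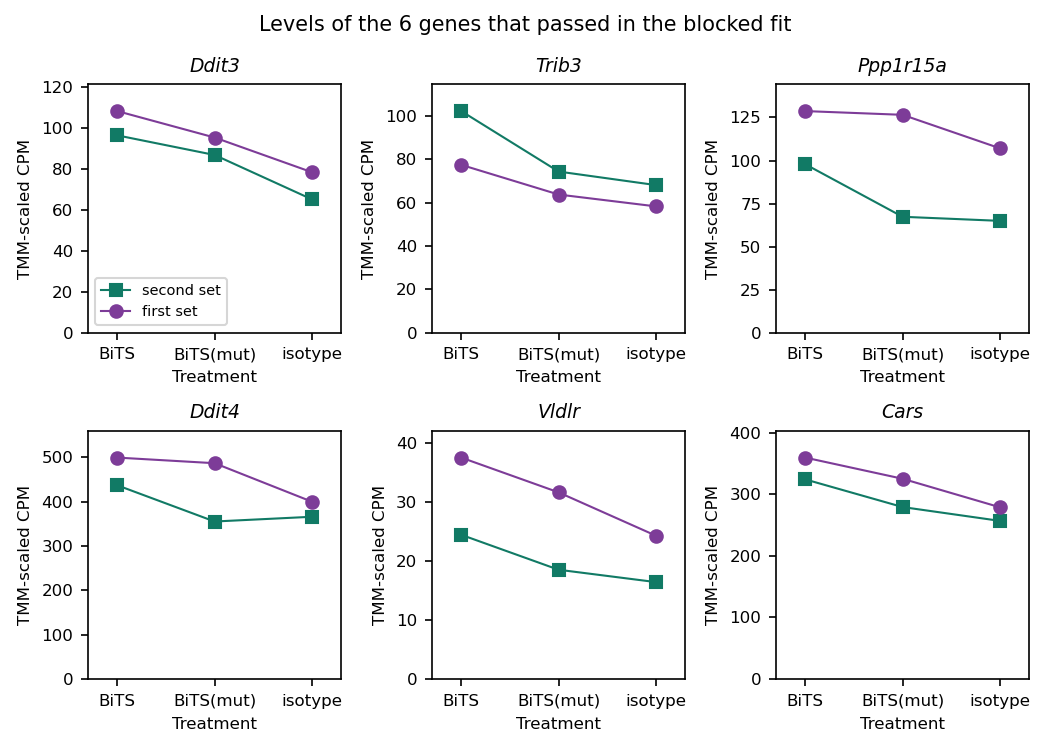
TMM-scaled CPM (vertical axis, from 0) of the 6 genes that rose in BiTS over isotype with the set as a block, by treatment (horizontal axis). Each line joins the 3 libraries of 1 set. BiTS lies above isotype in both sets in every panel, for example 108 and 96.4 CPM against 78.4 and 65.1 CPM for Ddit3.

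No enzyme of amino acid or one-carbon synthesis passed. Asns, the asparagine synthetase, had 129 and 103 CPM in BiTS, 116 and 96 CPM in BiTS(mut), and 90.6 and 101 CPM in isotype libraries. Its log2 difference between BiTS and isotype was 0.51 in the first set and 0.02 in the second, 0.26 ± 0.09 overall (adjusted p = 0.12 with the block). The serine pathway was flatter still. Psat1, its aminotransferase, had 325 and 284 CPM in BiTS, 304 and 279 CPM in BiTS(mut), and 277 and 290 CPM in isotype libraries (0.10 ± 0.08, adjusted p = 0.64 with the block). Phgdh, the first enzyme of serine synthesis, had 258 and 297 CPM in BiTS, 231 and 305 CPM in BiTS(mut), and 214 and 334 CPM in isotype libraries (0.05 ± 0.09, adjusted p = 0.86 with the block). For Phgdh the second isotype library was the highest of all 6 and the first the lowest. Its pseudogene Phgdh-ps1 has a row of its own, so reads may have been split between the pair.

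Psph, the last enzyme of serine synthesis, ranged from 43.6 to 46.1 CPM in BiTS and from 40.7 to 47.4 CPM in isotype libraries. Its exons share 10.4% of their bases with Cct6a on the other strand. The mitochondrial one-carbon enzyme Shmt2 had 445 and 438 CPM in BiTS against 360 and 425 CPM in isotype libraries, and Mthfd2, which acts after it, had 316 and 218 CPM against 261 and 254 CPM. Of the enzymes of proline synthesis, Aldh18a1 had 199 and 168 CPM against 165 and 154 CPM, and Pycr1 had 21.7 and 22.3 CPM against 14.2 and 19.2 CPM. Both were higher in BiTS in both sets without passing, as was the alanine aminotransferase Gpt2 (58.0 and 49.3 CPM against 42.2 and 44.6 CPM). Cth, which makes cysteine from cystathionine, had 51.5 and 41.0 CPM in BiTS and 49.8 and 51.8 CPM in isotype libraries. All 10 enzymes were higher in BiTS in the first set (median log2 difference 0.28), and 5 of 10 were higher in the second (median -0.007). Of all 13996 genes, 6967 were higher in BiTS in the first set and 7053 in the second.

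Among the 12 tRNA genes 1 rose and 0 fell. Cars (chr7:143557230-143600090, minus strand) had 360 and 324 CPM in BiTS, 325 and 279 CPM in BiTS(mut), and 279 and 257 CPM in isotype libraries. It rose by 0.35 ± 0.08 over isotype (adjusted p = 0.0070, edgeR with the block), with near-equal log2 differences of 0.37 and 0.34 in the first and second set. Cars was called in 9 of 12 other settings with the block. The call was lost with spike-in scaling and when either BiTS library was left out. Ddit3 was called over isotype in 11 of these 12 settings, and Trib3 and Vldlr in 10 each. Of the 6 members that rose in edgeR, DESeq2 with the block called Ddit3, Trib3 and Cars but not Ddit4, and gave Vldlr an adjusted p of 0.051 and Ppp1r15a one of 0.069. All 12 tRNA genes were higher in BiTS in the first set and 8 of 12 in the second, against 6967 and 7053 of all 13996 genes. The median log2 fold change of the 12 was 0.15. The other members higher in both sets were Aars (507 and 420 CPM in BiTS against 450 and 394 CPM in isotype), Sars (564 and 510 CPM against 466 and 483 CPM), Eprs (501 and 541 CPM against 429 and 501 CPM), Iars, Mars1, Yars and the tRNA exporter Xpot (194 and 164 CPM against 158 and 143 CPM). Aars shares 15.1% of its exon bases with Gm24103 on the other strand and Exosc6 on its own strand. Cars shares 3.2% with Gm15580 on the other strand. Gars, Nars, Tars and Wars were higher in BiTS in the first set and lower in the second. Their log2 fold changes over both sets lay between -0.02 and 0.02.

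**Figure D3:**
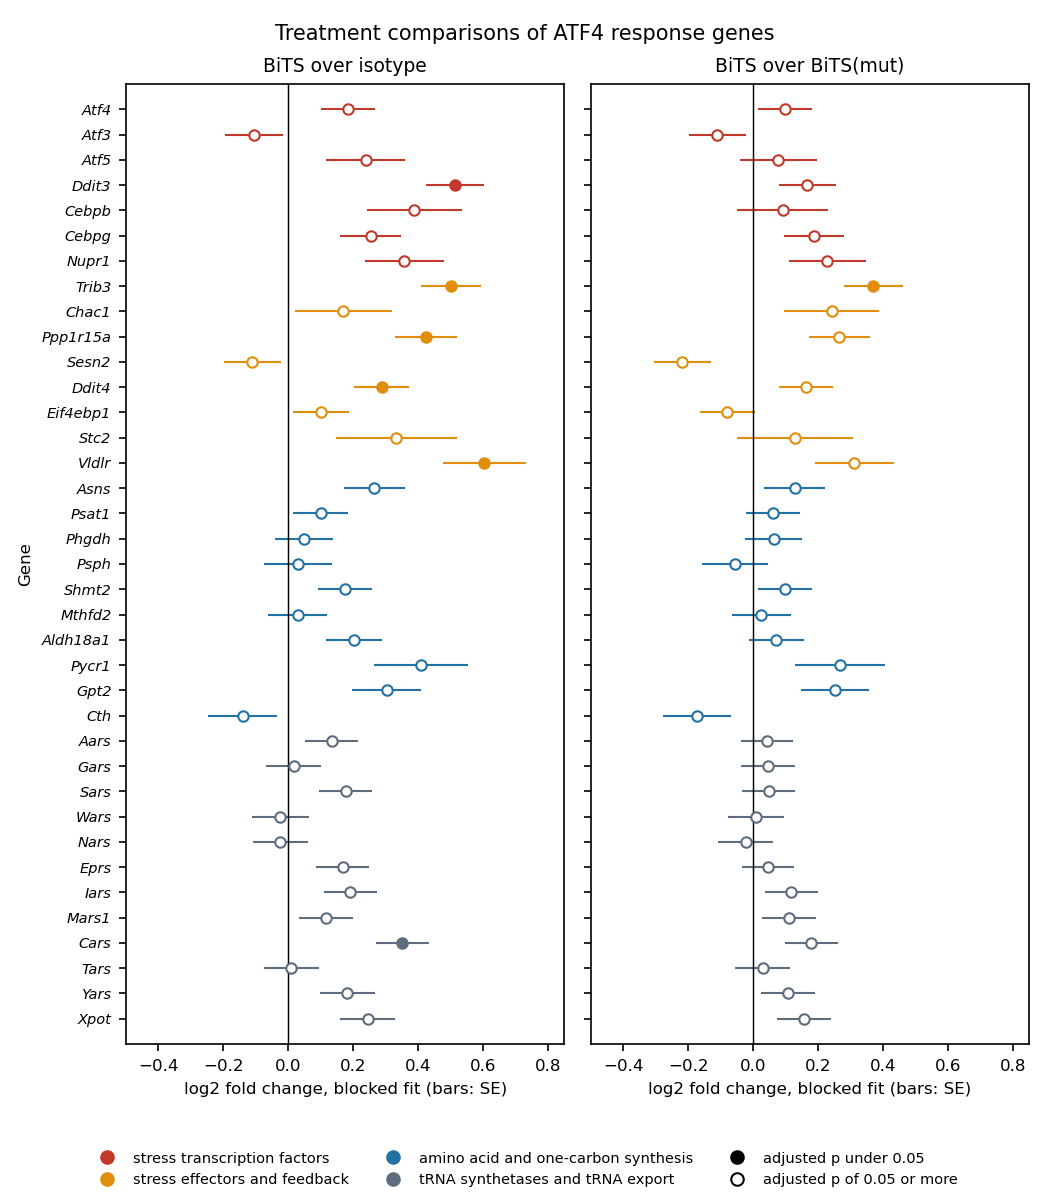
Log2 fold changes (horizontal axis) of the 37 genes (rows) for BiTS over isotype and BiTS over BiTS(mut) from the fit with the set as a block, with bars of 1 SE and filled points for adjusted p under 0.05. In the left panel 6 points are filled, from Ddit4 at 0.29 to Vldlr at 0.60, and in the right panel Trib3 at 0.37 is the filled one.

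The roles were also set side by side within each set. For the stress effectors the median log2 difference of BiTS from isotype was 0.23 in the first set and 0.42 in the second. For the stress factors these medians were 0.29 and 0.15, for the tRNA genes 0.21 and 0.07, and for all 37 genes 0.27 and 0.08, with 34 and 25 of 37 positive. Of all 13996 genes 6967 and 7053 were positive, with medians of -0.001 and 0.003. These are values of 1 library pair each, and whether the sets differ was not tested.

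**Figure D4:**
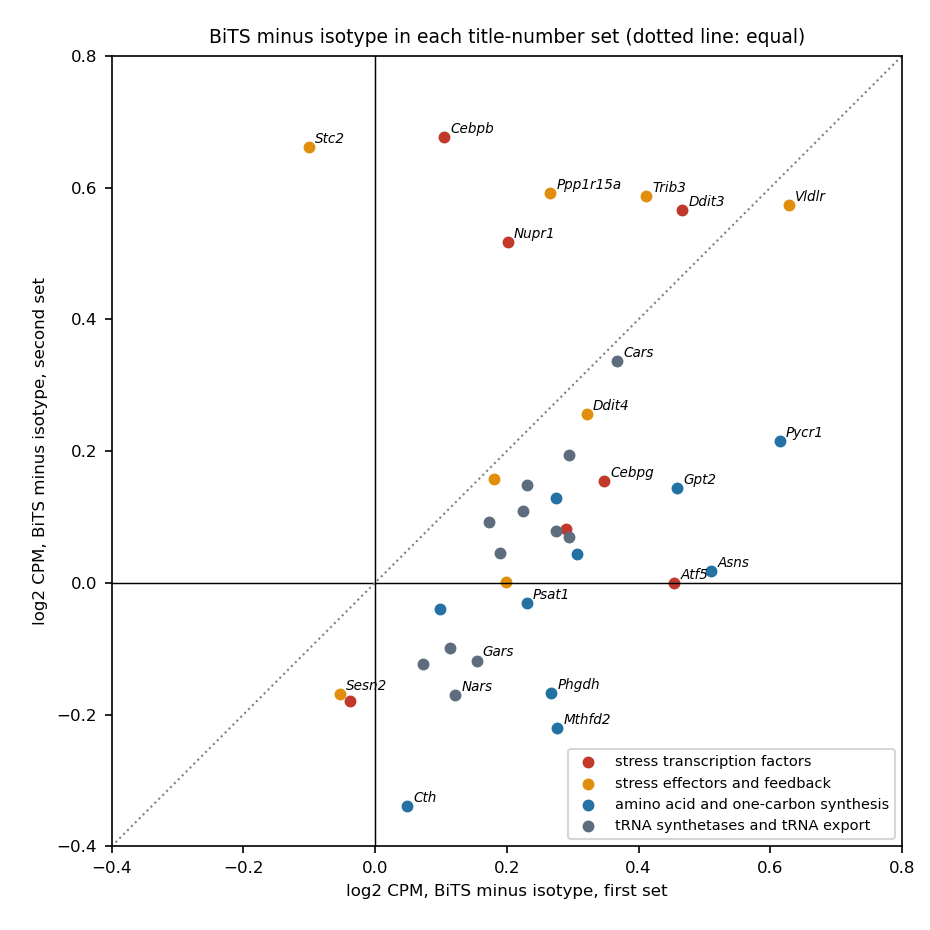
Log2 CPM of BiTS minus isotype in the first set (horizontal axis) and in the second set (vertical axis) for the 37 genes, coloured by role. Vldlr, Ddit4 and Cars lie near the dotted line of equal differences, while Asns (0.51 and 0.02), Phgdh (0.27 and -0.17) and Mthfd2 (0.28 and -0.22) lie far below it.

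Markers of cell types moved with this comparison. Of the 18 dendritic cell markers 8 fell in BiTS relative to isotype with the block (median log2 fold change -0.36), and of the 10 T cell markers 3 rose (Cd8a, Cd8b1 and Lck, median 0.17, close to the 0.18 of the 37 genes). The part of these shifts in the results for the stress genes was not tested. Leaving out 1 library also moved the count of calls: with the block it was 2 without BiTS replicate 2 (Ddit3 and Vldlr), where 40 of all 14656 genes rose, and 16 without isotype replicate 4, where 266 of 14717 rose. It was between 5 and 7 without any other library. The median of the 37 ran from 0.08 (without isotype replicate 1) to 0.25 (without isotype replicate 4) in these fits. The 16 included Atf4, Asns, Cebpg, Shmt2, Pycr1 and Gpt2. Isotype replicate 4 also stood apart in Lars2, the mitochondrial leucyl-tRNA synthetase, with 651 CPM against 125 to 215 CPM in the other 5 libraries.

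BiTS against BiTS(mut) compares the bispecific with the form labelled mut. Trib3 rose in BiTS and no other member of the list passed. Without the block 0 of 37 and 0 of 13996 genes (0% of genes) were called, with 76 at an unadjusted p under 0.05 in edgeR and 0 called and 42 at that p in DESeq2. With the block 0.272% of all genes rose (38) and 98 of the 13996 fell. Trib3 exceeded BiTS(mut) by 0.37 ± 0.09 (adjusted p = 0.025, edgeR with the block), by 0.28 in the first and 0.46 in the second set, and was called in 6 of 12 other settings with the block. The settings without the call were DESeq2 (adjusted p = 0.21 with the block), no filter on low counts (adjusted p = 0.054, edgeR with the block), spike-in scaling, and those that left out BiTS replicate 2, BiTS(mut) replicate 1 or BiTS(mut) replicate 2.

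The other named genes did not pass in this comparison. Ddit3 was 0.17 ± 0.09 higher in BiTS (adjusted p = 0.63 with the block), Chac1 0.24 ± 0.15 (adjusted p = 0.73 with the block) and Atf4 0.10 ± 0.08 (adjusted p = 0.87 with the block). Among the enzymes, Asns was at 0.13 ± 0.09 (adjusted p = 0.82 with the block), Psat1 at 0.06 ± 0.08 (adjusted p = 0.95 with the block) and Phgdh at 0.06 ± 0.09 (adjusted p = 0.95 with the block). The median of the 37 was 0.10, with 31 positive and 24 higher in BiTS in both sets, against 28.3% of all genes. With the block this median was 0.045 with 22 positive without BiTS replicate 1 and 0.041 with 27 positive without BiTS(mut) replicate 2. Over all fits with 1 library left out, with the block or without it, it ran from -0.001 to 0.185, and 19 were positive without BiTS replicate 1 and 18 without BiTS(mut) replicate 2 when no block was fitted. Sesn2 was lower in BiTS in both sets, with log2 differences of -0.25 and -0.19, and did not pass. The dendritic cell markers moved in this comparison too, with 7 of 18 called lower. The 10 T cell markers had a median of 0.16, above the 0.10 of the 37 genes, with 8 positive and Cd5 called lower. The part of these markers in the comparison was not tested.

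BiTS(mut) against isotype gave no call among the 37. Without the block 0 of 13996 genes were called (0%), with 41 at an unadjusted p under 0.05 in edgeR and 0 called and 12 at that p in DESeq2, and with the block 7 genes (0.05%). With the block, 5 of the 37 and 620 of all genes were at an unadjusted p under 0.05 in edgeR, and 2 of the 37 and 137 of all genes in DESeq2. Ddit3 had the largest fold change of the 37, 0.35 ± 0.09 (adjusted p = 0.31 with the block), and was called only when isotype replicate 1 was left out (0.40, adjusted p = 0.032, edgeR with the block). Trib3 differed by 0.13 ± 0.09, Asns by 0.14 ± 0.09, Atf4 by 0.09 ± 0.08, Psat1 by 0.04 ± 0.08, Phgdh by -0.02 ± 0.09 and Chac1 by -0.07 ± 0.15. The median of the 37 was 0.09. With 1 library left out it ran from -0.03 (without BiTS(mut) replicate 1 and with no block) to 0.198 (without BiTS(mut) replicate 2 and with no block), and with the block it was -0.029 without isotype replicate 1 and 0.18 without isotype replicate 4. Scaling to spike-in transcripts with the block gave -0.034, with 15 of 37 positive. Under that scaling the median of all genes was -0.121, with 22% positive. Of the 37, 36 were higher in BiTS(mut) in the first set and 17 in the second, against 6991 and 7163 of all 13996 genes. In both sets 17 of the 37 were higher, against 25.1% of all genes. None of the dendritic cell or T cell markers was called here.

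The 3 treatment comparisons share their libraries, so their values are not independent. In both sets the order BiTS above BiTS(mut) above isotype held for 11 of 37 genes (Ddit3, Nupr1, Trib3, Ppp1r15a, Vldlr, Aldh18a1, Aars, Sars, Eprs, Iars and Cars), against 6.52% of all genes tested. In the first set alone it held for 28 of 37, against 2906 of 13996 genes, and in the second for 13 of 37, against 3220 of 13996.

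More genes were called between the sets than between any treatments. In the second set relative to the first, with treatment in the fit, 4 of the 37 genes were higher and 16 lower, where 25.9% of all genes were higher and 26.9% lower. Scaled to spike-in transcripts, 0 of the 37 were higher and 25 lower, where 61 of all genes were higher and 6062 lower. Stc2 was highest, with 17.7, 13.4 and 11.2 CPM in the second set against 7.04, 8.26 and 7.55 CPM in the first (BiTS, BiTS(mut) and isotype in that order), and a log2 fold change of 0.88 ± 0.15 (adjusted p = 2.5e-06, edgeR). Phgdh (0.41 ± 0.07), Trib3 (0.29 ± 0.08) and Wars (0.17 ± 0.07, adjusted p = 0.039, edgeR) were also higher. Phgdh, Trib3 and Wars turned to the other sign when counts were scaled to spike-in transcripts (-0.347, -0.478 and -0.588), a scaling that put the median of all genes by set at -0.74, against 0.02 under TMM.

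Ppp1r15a showed the largest fall, with 97.8, 67.3 and 64.9 CPM in the second set against 129, 127 and 107 CPM in the first, a log2 fold change of -0.67 ± 0.08 (adjusted p = 4.1e-10, edgeR). Vldlr (-0.66 ± 0.10), Iars (-0.52 ± 0.07), Atf3 (-0.51 ± 0.07), Mthfd2 (-0.34 ± 0.07) and Eif4ebp1 (-0.32 ± 0.07) followed. Atf4 (-0.24 ± 0.07, adjusted p = 0.0028, edgeR) and Ddit3 (-0.19 ± 0.07, adjusted p = 0.026, edgeR) were lower as well. Asns (-0.15 ± 0.08), Chac1 (-0.25 ± 0.12) and Psat1 (-0.09 ± 0.07) did not pass. By role, 4 of 7 stress factors, 4 of 8 effectors, 3 of 10 enzymes and 5 of 12 tRNA genes were lower, and the median of the 37 was -0.16 where that of all genes was 0.02. The dendritic cell markers were lower in the second set as well, 16 of 18 of them, with a median of -1.01, and so were all 4 tested macrophage and monocyte markers (median -1.53), while 6 of the 10 T cell markers were higher and 1 lower (median 0.27). The part of these markers in the set difference of the stress genes was not tested. The count of 20 genes called came to 9 without BiTS(mut) replicate 1 and to 9 without BiTS(mut) replicate 2, and that over all genes came to 4987 of 14588 and 4957 of 14504, against 7382 of 13996 with all libraries.

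**Figure D5:**
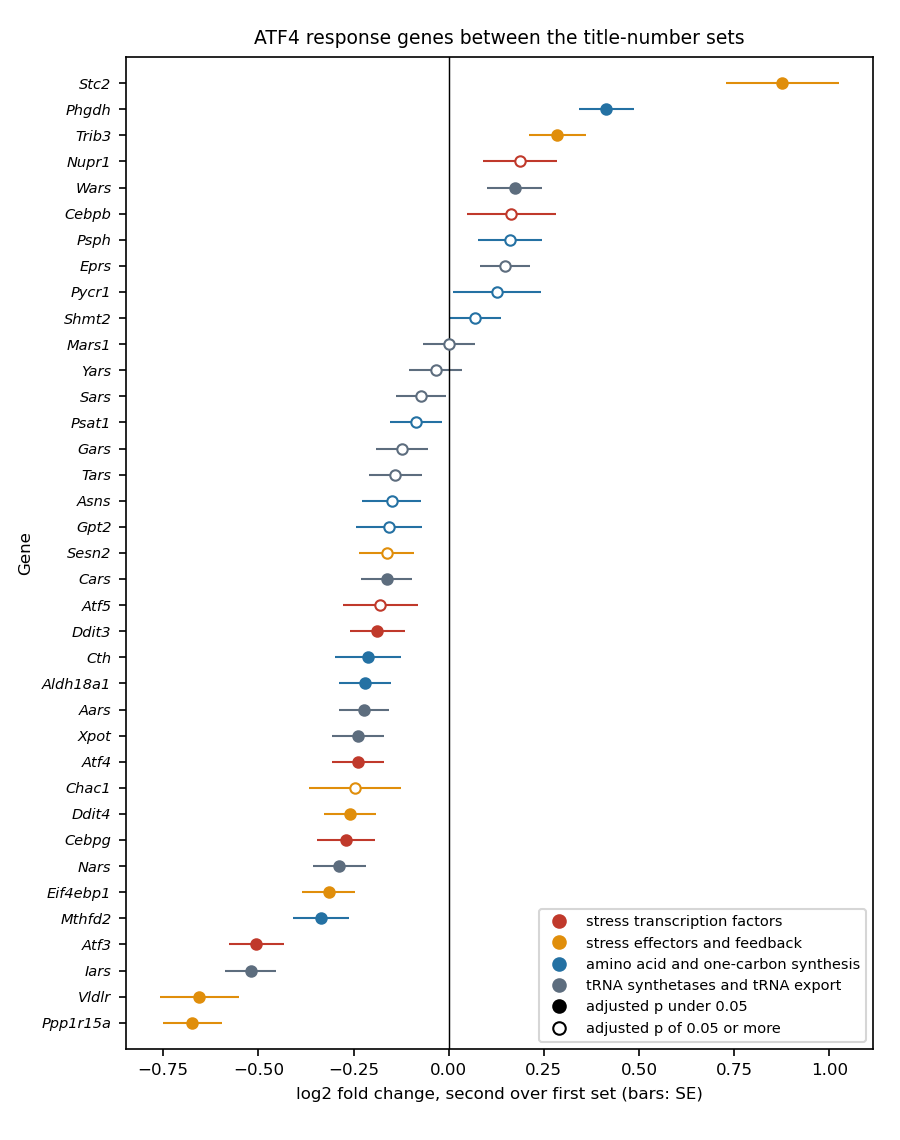
Log2 fold change of the second over the first title-number set (horizontal axis) for the 37 genes in order of size, with bars of 1 SE, from the fit with treatment and set. Filled points passed at an adjusted p under 0.05, 4 to the right of 0 (Stc2 at 0.88 highest) and 16 to the left (Ppp1r15a at -0.67 lowest).

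Other genes of the pathway were followed in 6 further lists. In BiTS against isotype, the 15 tested genes among other ATF4 targets and amino acid transporters had a median log2 fold change of 0.20. With the block 1.81% of all genes rose, and 2 of these 15 did. These were Slc38a2, a neutral amino acid transporter (345 and 242 CPM in BiTS against 276 and 177 CPM in isotype, 0.38 ± 0.08, adjusted p = 0.0030, edgeR), and the GTPase gene Gtpbp2 (390 and 356 CPM against 330 and 279 CPM, 0.30 ± 0.08, adjusted p = 0.028, edgeR). Slc7a11, the cystine transporter, was lower in BiTS than in BiTS(mut), with 20.7 and 7.77 CPM against 31.8 and 13.2 CPM (-0.68 ± 0.15, adjusted p = 0.0069, edgeR with the block). Isotype libraries had 25.1 and 7.71 CPM. BiTS differed from isotype by -0.18 ± 0.15 (adjusted p = 0.64, edgeR with the block). BiTS(mut) differed from isotype by 0.49 ± 0.14 without passing, and the second set from the first by -1.44 ± 0.12.

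Upstream of ATF4, 0 of the 13 genes for eIF2 kinases, eIF2 and eIF2B rose and 1 fell: Eif2ak2, the kinase activated by double-stranded RNA, with 35.9 and 43.2 CPM in BiTS against 47.0 and 55.7 CPM in isotype libraries (-0.38 ± 0.10, adjusted p = 0.028, edgeR with the block). The other 9 cytosolic tRNA synthetases, which are outside the list of 37, had 0 calls and a median of -0.01. With the block 1.81% of all genes rose and 1.59% fell, and at these shares lists this short can hold 0 calls. Of the 17 mitochondrial synthetases Lars2 fell (-1.22 ± 0.13) and the median was 0.03. Isotype replicate 4 was the library at 651 CPM for this gene, against 215 CPM in isotype replicate 1. In the list of other one-carbon and serine genes, Aldh1l2, the mitochondrial formyltetrahydrofolate dehydrogenase, rose (16.3 and 17.3 CPM in BiTS against 10.7 and 12.4 CPM in isotype, 0.54 ± 0.16, adjusted p = 0.036, edgeR with the block). Shmt1, the cytosolic serine hydroxymethyltransferase, fell (34.1 and 46.8 CPM against 42.1 and 64.1 CPM, -0.38 ± 0.10, adjusted p = 0.026, edgeR with the block). The 16 genes of the IRE1 and ATF6 arms of the unfolded protein response had 0 calls, a median of -0.06 and 6 positive values. The pathway lists had 0 calls in BiTS(mut) against isotype other than Lars2, where 7 of all 13996 genes were called with the block.

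The promoter element was set beside the treatment response as a description. The 12 genes with the core had a median log2 fold change of BiTS over isotype of 0.19, with 11 of 12 positive, and the 20 genes with a window and no match had a median of 0.19, with 19 of 20 positive. Of the 6 genes that rose, Trib3 and Vldlr held the core. Ddit3, Ppp1r15a and Ddit4 had windows without those letters, and Cars was among the genes without a window, with Eif4ebp1, Cth, Wars and Nars.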

How the data were processed

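RNA was sequenced from 6 libraries, 2 for each of BiTS, BiTS(mut) and isotype. The authors deposited a table of raw, whole-number gene counts for each library. The submitters' processing notes name mm10 and DESeq2 without a role, and no source used here gives the aligner, the counter or the strand setting. Symbols came by identifier from a reference table of gene names, which held 49326 of 49671 identifiers, and coordinates are those of the tables. The tables also hold 92 ERCC spike-in transcripts, 3.36% to 7.54% of all counts, which were kept out of gene totals and tests.

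The quasi-likelihood test of edgeR 4.0.16 (with limma 3.58.1 under R 4.3.3) was run two-sided on the 13996 genes kept by filterByExpr, after TMM scaling. P-values were adjusted by Benjamini-Hochberg over those genes, with 0.05 as the threshold for a call. The main design had 1 coefficient per treatment and no block, with 3 residual degrees of freedom, and the alternative added the title-number set as a replicate block, with 2. The test also borrows spread from other genes, counted as 3.14 prior degrees of freedom without the block and 45.95 with it. P-values with the block thus rest mostly on a spread shared across genes. Libraries of a set deviated together from their group means, with correlations of 0.66, 0.74 and 0.73 over 13996 genes, which is why blocked values stand beside the unblocked ones. This pairing comes from the title numbers and the data, not from a stated design. The set itself was tested with treatment in the fit. Other alternatives were DESeq2 1.42.0, RLE size factors, spike-in scaling, no filter, a CPM of at least 5 in 2 libraries, only the 4 libraries compared, and leaving out each library.

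TPM used the exon lengths of the tables, which join all annotated exons of a gene and are not the length of 1 transcript. Within-set differences are log2 ratios of scaled CPM between 2 libraries. Limits from counts cover counting error only. No 2 libraries agreed within counting noise. Simulated counts for BiTS against isotype (13797 genes) kept the means of each set and gave BiTS the same change in both sets. Their spread was taken from the design with the block. With the block 69% of log2 changes of 0.5 and 98% of changes of 1 were recovered, with 4 false calls. Without it 0% of either was recovered. The gap between the fits follows from that setting and cannot test the calls made in the data.

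The 37 genes, the role, pathway and marker lists and the tests were chosen with earlier results of these data known. Fold changes with a test are given for genes called with the block and for 7 genes whatever their result (Atf4, Ddit3, Trib3, Chac1, Asns, Psat1 and Phgdh), and between sets for up to 6 called genes at each end. Other singled-out genes were chosen after their values were seen.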

Additional observations from a re-analysis of the deposited data

Results flagged for a closer look

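Some genes had opposite within-set differences, each beyond 95% counting error of its 2 libraries: higher than isotype in the first set and lower in the second. The difference between sets was not tested, and the BiTS and BiTS(mut) comparisons share the isotype libraries. For BiTS against isotype, Phgdh had log2 differences of 0.27 in the first and -0.17 in the second set (second minus first -0.435), Mthfd2 0.28 and -0.22 (-0.496) and Nars 0.12 and -0.17 (-0.293). Gars and Tars, tRNA synthetases for glycine and threonine, had 0.15 and -0.12 (-0.272) and 0.11 and -0.10 (-0.212). For BiTS(mut) against isotype the second-minus-first values were -0.241 for Phgdh, -0.384 for Mthfd2, -0.41 for Cth, -0.267 for Gars and -0.276 for Nars.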

How the results depend on the processing

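Of the single-gene log2 fold changes of BiTS against isotype recomputed under other settings, 6 reversed, those of Psat1 and Phgdh. With the replicate block, genes rising in BiTS over isotype among all tested numbered 253 in edgeR, 79 in DESeq2 and 233 with RLE size factors. They were 221 with no filter and 218 with a CPM of at least 5 in 2 libraries. With only the 4 libraries compared 152 rose, and with spike-in scaling 0. The count of the 37 genes called in these fits was 6 in edgeR, 3 in DESeq2 and 5 with RLE size factors. It was 6 with no filter and 5 with a CPM of at least 5 in 2 libraries. With only the 4 libraries compared it was 5, and with spike-in scaling 0. Leaving out 1 library gave 2 to 16 with the block and 0 without it. For BiTS against BiTS(mut) the blocked count was 1 in edgeR, 1 with RLE size factors, 1 with a CPM of at least 5, 2 with only the 4 libraries compared, and 0 in DESeq2, with no filter and with spike-in scaling, and 0 to 2 with 1 library left out. For BiTS(mut) against isotype leaving out 1 library gave 0 to 1, and between the sets 9 to 27 around a count of 20. Over all genes, those rising with the block in BiTS over BiTS(mut) numbered 38 in edgeR, 13 in DESeq2 and 38 with RLE size factors. They were 35 with no filter and 29 with a CPM of at least 5. With only the 4 libraries compared 166 rose, and with spike-in scaling 0. Without the block no setting called any of the 37 for a treatment. The cause of these differences was not tested. Fits without 1 library have fewer residual degrees of freedom and, without the block, unequal sets in a group. With the block their prior degrees of freedom, those borrowed from other genes, were higher. They went from 45.95 with all libraries to 56.76 without isotype replicate 1 and to infinity without any of the others. A group left with 1 library is assumed to vary like the others.

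Among treatment comparisons, sign changed for differences that passed no test. With 1 library left out, BiTS against isotype ran from -0.017 to 0.214 for Psat1 and from -0.267 to 0.372 for Phgdh. BiTS against BiTS(mut) ran from -0.062 to 0.275 for Atf4, -0.045 to 0.286 for Asns, -0.041 to 0.159 for Psat1 and -0.128 to 0.26 for Phgdh. BiTS(mut) against isotype ran from -0.082 to 0.249 for Atf4, -0.231 to 0.063 for Chac1, -0.1 to 0.37 for Asns, -0.079 to 0.154 for Psat1 and -0.319 to 0.322 for Phgdh. Spike-in scaling with the block gave -0.034 for Atf4 and -0.085 for Psat1 in that comparison, where it moved the median of all genes to -0.121. It moved that median to 0.178 for BiTS against BiTS(mut) and to -0.743 between the sets, where Trib3 (-0.478), Phgdh (-0.347) and Wars (-0.588), all called higher under TMM, turned negative and the median of the 37 was -0.922. All 37 genes were at 7 CPM or more in every library, above the 0.277 CPM that a count of 0 allows at most.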
